A study of Drosophila melanogaster with 4 samples.

Results

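The genes described here encode seminal fluid proteins of Drosophila melanogaster, and their transcripts were measured by sequencing of oligo-dT selected RNA from testes. They were chosen by name, as every gene whose symbol in the deposited tables starts with Acp or Sfp and 2 digits, together with Mst57Da, Mst57Db, Mst57Dc, Dup99B and msopa. The cuticle protein gene Acp65Aa was left out. The rule found 49 genes among the 14664 in the tables, of which 17 are named Acp, 27 are named Sfp and 5 have other names.

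Testes came from flies of 2 genotypes, Phf7-bam- and bam-, with 2 libraries of each. All flies thus carried a mutation in bam, which germ cells need to leave the spermatogonial divisions, and the double mutant was also mutant for Phf7, whose PHD finger protein helps to set male identity in the germline. Flies were grown at 25 °C and dissected within 3 days of eclosion. Alleles, strain and the number of animals behind a library were not stated in the labels used here. The design calls the libraries of a genotype biological replicates.

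Seminal fluid proteins are secreted mainly by the paired accessory glands of the male and pass to the female with sperm. The glands are somatic organs that open into the ejaculatory duct beside the ducts from the testes, and they are not part of the testis. In mated females these proteins are known to stimulate egg laying, lower receptivity to further mating and help to store sperm. Within the glands, main cells and secondary cells make different sets of these proteins.

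The transcript of Phf7 itself (chrX:20054386-20056763; all coordinates are dm3) stood at 18.8 and 22.9 FPKM in Phf7-bam- replicates 1 and 2, against 173 and 152 FPKM in bam- replicates 1 and 2, a change of -2.91 in log2 units without overlap of the genotypes (limma adjusted p = 0.00706; 0.192 with no filter on low values, and 0.141 and 0.105 without Phf7-bam- replicate 1 or 2). bam was at 27.6 and 32.6 FPKM in Phf7-bam- replicates 1 and 2, against 28.6 and 26.5 FPKM in bam- replicates 1 and 2. FPKM scales the fragments of a gene by the length of its transcript and by the fragments mapped in that library. The tables give no counts, and the absolute depth is unknown. Relative to bam- replicate 1, the spacing of low FPKM values gave depths of 1.16 and 1.41 for Phf7-bam- replicates 1 and 2, and of 1.22 for bam- replicate 2. A value of exactly 0 also stood in bam- replicate 2 for ThrRS, a housekeeping gene that charges tRNA, which had 114 to 129 FPKM in the other libraries, and so such a gene is called listed at 0.

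The seminal fluid genes separated the 4 libraries, and not by genotype. Their FPKM summed to 8457 and 115.4 in Phf7-bam- replicates 1 and 2, against 75.8 and 3589 in bam- replicates 1 and 2. These sums were 1.29% and 0.0174% of all FPKM in the Phf7-bam- libraries, against 0.0117% and 0.548% in the bam- libraries. Phf7-bam- replicate 1 and bam- replicate 2 thus stood apart with high values, and 1 library of each genotype was low. The ranges of the genotypes overlapped in these sums.

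The number of genes with transcript was split the same way. In Phf7-bam- replicates 1 and 2, 47 and 31 of the 49 genes were above 0 and 33 and 3 were at 10 FPKM or more, against 31 and 44 above 0 and 2 and 30 at 10 FPKM or more in bam- replicates 1 and 2. Of the 49 genes, 24 were above 0 in all 4 libraries, 13 in 3, 8 in 2, 2 in 1 and 2 in none. The 24 genes made up 48.98% of the seminal fluid genes, against 72.6% for all genes of the series. Of the libraries with few genes above 0, Phf7-bam- replicate 2 had the greatest relative depth and bam- replicate 1 the lowest of all 4 libraries. The part of depth in these counts was not tested.

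**Figure D1:**
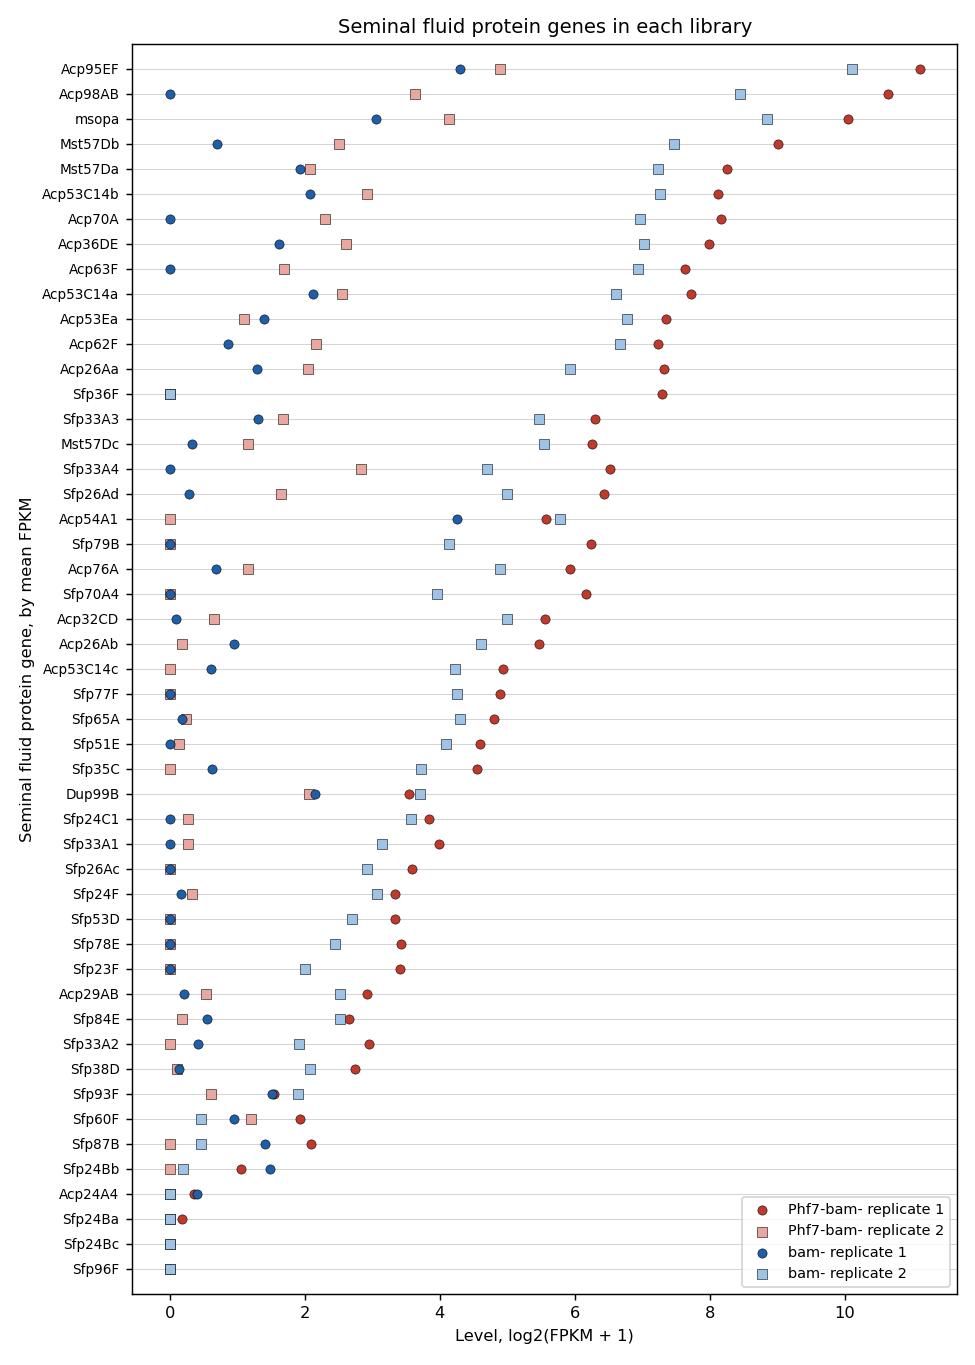
Level of each of the 49 seminal fluid genes as log2(FPKM + 1), with 1 point per library; genes are ordered by mean FPKM. Phf7-bam- replicate 1 and bam- replicate 2 lie to the right of the other libraries for 41 of the 49 genes, and 24 genes are above 0 in all 4 libraries.

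For 41 of the 49 genes, all of them among the 44 with a mean of at least 1 FPKM, Phf7-bam- replicate 1 and bam- replicate 2 were both above the other libraries. The same held for 501 of all 8965 genes with such a mean, or 5.59%. Over genes above 0 in both libraries, the median ratio of Phf7-bam- replicate 1 to replicate 2 was 60.7 (31 genes), and for bam- replicate 1 over replicate 2 it was 0.0270 (30 genes). At 8-fold or more on the FPKM + 1 scale in both genotypes the order was found in 29 of the 49 genes and in 0.436% of all 14664 genes, and the opposite order in 0 of the 49 and in 0.191% of all genes. The 8-fold limit was chosen after the values were seen.

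Peptides that act on the behaviour and egg laying of the mated female come first. Acp70A, the sex peptide, which lowers receptivity and raises egg laying (chr3L:13294735-13295022), was at 287 and 3.95 FPKM in Phf7-bam- replicates 1 and 2, and listed at 0 (bam- replicate 1) and at 124 FPKM (bam- replicate 2). It was high in 1 library of each genotype, and the genotypes overlapped. Its related peptide Dup99B, which is made in the ejaculatory duct (chr3R:25540725-25541153), was at 10.7 and 3.16 FPKM in Phf7-bam- replicates 1 and 2, against 3.42 and 12.0 FPKM in bam- replicates 1 and 2. The same 2 libraries were the higher ones for Dup99B, but by 3.39-fold within Phf7-bam- and 3.51-fold within bam-, and it kept 3 FPKM or more in all 4. Acp26Aa, the prohormone ovulin that stimulates ovulation (chr2L:5892883-5893896), was at 159 and 3.14 FPKM in Phf7-bam- replicates 1 and 2, against 1.44 and 59.8 FPKM in bam- replicates 1 and 2. Acp26Ab, its neighbour 20 bp away, was at 43.4 and 0.131 FPKM in Phf7-bam- replicates 1 and 2, against 0.930 and 23.5 FPKM in bam- replicates 1 and 2. Acp26Aa was above Acp26Ab in every one of the 4 libraries, and both had overlapping genotypes.

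Proteins that act on sperm or on other seminal proteins followed the same order of libraries. Acp36DE, a glycoprotein needed for sperm storage (chr2L:18356113-18359026), was at 252 and 5.10 FPKM in Phf7-bam- replicates 1 and 2, against 2.09 and 129 FPKM in bam- replicates 1 and 2. Phf7-bam- replicate 1 exceeded replicate 2 by 49.4-fold, and bam- replicate 2 exceeded replicate 1 by 61.6-fold. The locus of Acp36DE lies within that of Fas3, a cell adhesion gene on the opposite strand, which was at 29.2 and 33.0 FPKM in Phf7-bam- replicates 1 and 2, against 30.4 and 33.6 FPKM in bam- replicates 1 and 2 and so differed little between libraries. Acp29AB, a lectin that helps to retain stored sperm (chr2L:8392466-8393239), was at 6.61 and 0.449 FPKM in Phf7-bam- replicates 1 and 2, against 0.159 and 4.74 FPKM in bam- replicates 1 and 2. Acp62F, a protease inhibitor (chr3L:2739750-2740228), was at 149 and 3.49 FPKM in Phf7-bam- replicates 1 and 2, against 0.825 and 100.4 FPKM in bam- replicates 1 and 2. Acp76A, a member of the serpin family of protease inhibitors (chr3L:19043891-19045126), was at 59.7 and 1.23 FPKM in Phf7-bam- replicates 1 and 2, against 0.612 and 28.7 FPKM in bam- replicates 1 and 2. In each of these genes 1 library of either genotype was high and the other low.

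Acp95EF, Acp98AB and msopa had the highest means of the 49 genes. Acp95EF (chr3R:20054697-20055001) had the highest FPKM of the 49 genes in each library, and was at 2209 and 28.6 FPKM in Phf7-bam- replicates 1 and 2, against 18.6 and 1095 FPKM in bam- replicates 1 and 2. Even in the low libraries it was thus well above 10 FPKM. It ranked 33 and 3090 among all genes in Phf7-bam- replicates 1 and 2, against 4068 and 106 in bam- replicates 1 and 2. The same order of libraries was seen for the other two and for Acp63F, which came 9th by mean. Acp98AB (chr3R:23520623-23520778), on a locus of 156 bp, was at 1597 and 11.4 FPKM in Phf7-bam- replicates 1 and 2, and listed at 0 (bam- replicate 1) and at 347 FPKM (bam- replicate 2). The male-specific gene msopa (chr3L:22075908-22076284) was at 1059 and 16.6 FPKM in Phf7-bam- replicates 1 and 2, against 7.33 and 457 FPKM in bam- replicates 1 and 2. Acp63F (chr3L:3815923-3816354) was at 198 and 2.22 FPKM in Phf7-bam- replicates 1 and 2, and listed at 0 (bam- replicate 1) and at 121 FPKM (bam- replicate 2). These 4 genes were thus high in Phf7-bam- replicate 1 and bam- replicate 2, with Acp98AB and Acp63F listed at 0 in bam- replicate 1.

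Several genes lie in clusters, and 24 of the 49 had another of them within 10000 bp, in 8 clusters. In the cluster of male-specific transcripts on 3R, Mst57Db (chr3R:21656444-21657014) was at 516 and 4.71 FPKM in Phf7-bam- replicates 1 and 2, against 0.618 and 177 FPKM in bam- replicates 1 and 2. Its neighbour Mst57Da was at 304 and 3.22 FPKM in Phf7-bam- replicates 1 and 2, against 2.81 and 149 FPKM in bam- replicates 1 and 2. The third gene, Mst57Dc, was at 75.4 and 1.24 FPKM in Phf7-bam- replicates 1 and 2, against 0.252 and 45.7 FPKM in bam- replicates 1 and 2. Mst57Db was the highest of these 3 in both Phf7-bam- libraries and in bam- replicate 2, and Mst57Da in bam- replicate 1. Between Mst57Dc and Mst57Db, Sfp96F was listed at 0 in all 4 libraries, and its locus of 131 bp overlaps Mst57Dc by 38 bp on the same strand.

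In the cluster on 2R, Acp53C14b (chr2R:12636411-12636952) was at 278 and 6.59 FPKM in Phf7-bam- replicates 1 and 2, against 3.22 and 152 FPKM in bam- replicates 1 and 2. Acp53C14a was at 209 and 4.86 FPKM in Phf7-bam- replicates 1 and 2, against 3.35 and 97.1 FPKM in bam- replicates 1 and 2. Acp53Ea was at 162 and 1.14 FPKM in Phf7-bam- replicates 1 and 2, against 1.62 and 109 FPKM in bam- replicates 1 and 2. In all 3 genes Phf7-bam- replicate 1 and bam- replicate 2 were the high libraries. Acp53C14c was lower, and was at 29.6 FPKM (Phf7-bam- replicate 1) and listed at 0 (Phf7-bam- replicate 2), against 0.530 and 17.7 FPKM in bam- replicates 1 and 2. Sfp53D was at 9.05 FPKM (Phf7-bam- replicate 1) and listed at 0 (Phf7-bam- replicate 2), and listed at 0 (bam- replicate 1) and at 5.48 FPKM (bam- replicate 2). Acp53C14b was the highest of the cluster in both Phf7-bam- libraries and in bam- replicate 2. In bam- replicate 1 Acp53C14a was at 3.35 FPKM and Acp53C14b at 3.22 FPKM.

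The Sfp genes, which were named as seminal fluid proteins by their transfer to females, were mostly less abundant. Sfp33A3 (chr2L:11839912-11840332) was at 77.7 and 2.21 FPKM in Phf7-bam- replicates 1 and 2, against 1.46 and 43.5 FPKM in bam- replicates 1 and 2. Sfp26Ad was at 85.6 and 2.15 FPKM in Phf7-bam- replicates 1 and 2, against 0.217 and 31.0 FPKM in bam- replicates 1 and 2. Sfp33A4, a locus of 153 bp, was at 90.5 and 6.16 FPKM in Phf7-bam- replicates 1 and 2, and listed at 0 (bam- replicate 1) and at 24.9 FPKM (bam- replicate 2). These were the 3 highest Sfp genes by mean after Sfp36F. Both Phf7-bam- replicate 2 and bam- replicate 1 listed Sfp79B, Sfp70A4, Sfp77F, Sfp26Ac, Sfp53D, Sfp78E and Sfp23F at 0, while Phf7-bam- replicate 1 had 9.05 to 74.9 FPKM and bam- replicate 2 had 3.02 to 18.2 FPKM. In Sfp65A, Sfp51E, Sfp35C, Sfp24C1, Sfp33A1, Sfp24F, Sfp84E, Sfp33A2 and Sfp38D the values of Phf7-bam- replicate 1 and bam- replicate 2 lay between 2.76 and 26.9 FPKM, and those of the other libraries were at most 0.552 FPKM. Acp32CD was at 46.03 and 0.580 FPKM in Phf7-bam- replicates 1 and 2, against 0.0685 and 30.9 FPKM in bam- replicates 1 and 2. None of these 20 genes separated the genotypes.

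A few genes had another order of libraries or a smaller range. Sfp60F (chr2R:21059768-21060218) was at 2.82 and 1.31 FPKM in Phf7-bam- replicates 1 and 2, against 0.931 and 0.379 FPKM in bam- replicates 1 and 2, and it was the one gene of the 49 with both Phf7-bam- libraries above both bam- libraries. Among all 8965 tested genes 20.5% had that order, and 14.0% had the reverse, which none of the 49 had. Sfp60F lies 1101 bp from PebII and 2645 bp from Peb, genes of ejaculatory bulb proteins. PebII was at 3.11 and 1.06 FPKM in Phf7-bam- replicates 1 and 2, against 0.599 and 0.244 FPKM in bam- replicates 1 and 2, in the same order of libraries as Sfp60F. Sfp93F kept the order, with less than 2-fold between the bam- libraries, and was at 1.93 and 0.526 FPKM in Phf7-bam- replicates 1 and 2, against 1.86 and 2.73 FPKM in bam- replicates 1 and 2. Sfp87B was at 3.27 FPKM (Phf7-bam- replicate 1) and listed at 0 (Phf7-bam- replicate 2), against 1.65 and 0.385 FPKM in bam- replicates 1 and 2. Sfp24Bb was at 1.09 FPKM (Phf7-bam- replicate 1) and listed at 0 (Phf7-bam- replicate 2), against 1.80 and 0.147 FPKM in bam- replicates 1 and 2. In both of these, bam- replicate 1 was above bam- replicate 2. The locus of Sfp87B lies wholly within that of svp on the same strand. svp was at 1.35 and 1.13 FPKM in Phf7-bam- replicates 1 and 2, against 1.14 and 1.11 FPKM in bam- replicates 1 and 2. The part of svp reads in the values of Sfp87B was not tested.

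Acp54A1, a locus of 141 bp on 2R, was at 46.7 FPKM (Phf7-bam- replicate 1) and listed at 0 (Phf7-bam- replicate 2), against 18.0 and 53.8 FPKM in bam- replicates 1 and 2. It was higher in bam- replicate 1 than in Phf7-bam- replicate 2 and, beside Acp95EF, the only one of the 49 genes above 10 FPKM in bam- replicate 1. Sfp36F, a locus of 166 bp on 2L, was at 156 FPKM (Phf7-bam- replicate 1) and listed at 0 (Phf7-bam- replicate 2), and listed at 0 in both bam- libraries. For loci this short 1 fragment is worth a high FPKM, and 6 of the 49 loci are under 200 bp. At the low end, Acp24A4 was at 0.282 FPKM (Phf7-bam- replicate 1) and listed at 0 (Phf7-bam- replicate 2), and at 0.326 FPKM (bam- replicate 1) and listed at 0 (bam- replicate 2). Sfp24Ba was at 0.141 FPKM (Phf7-bam- replicate 1) and listed at 0 (Phf7-bam- replicate 2), and listed at 0 in both bam- libraries. Sfp24Bc was listed at 0 in all 4 libraries. The 3 Sfp24B genes lie within the locus of CG34340.

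The make-up of the seminal fluid transcripts was compared between libraries as the share of each gene in the summed FPKM of the 49 genes. Acp95EF held 26.1% and 24.8% in Phf7-bam- replicates 1 and 2, against 24.5% and 30.5% in bam- replicates 1 and 2. The share of msopa was 12.5% and 14.4% in the Phf7-bam- libraries, against 9.67% and 12.7% in the bam- libraries. Acp36DE held 2.98% and 4.41% in the Phf7-bam- libraries, against 2.75% and 3.58% in the bam- libraries. These shares moved by less than 2-fold while the sum moved by 112-fold from the lowest to the highest library. Others did not stay level, some abundant genes among them. Acp98AB held 18.9% and 9.90% in Phf7-bam- replicates 1 and 2, against none and 9.66% in bam- replicates 1 and 2. Mst57Db held 6.10% and 4.08% in the Phf7-bam- libraries, against 0.815% and 4.92% in the bam- libraries. Acp54A1 held 0.552% of the sum in Phf7-bam- replicate 1 and none in replicate 2, against 23.7% and 1.499% in bam- replicates 1 and 2. Dup99B held 0.127% and 2.74% in the Phf7-bam- libraries, against 4.52% and 0.335% in the bam- libraries. No test was run on these shares.

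**Figure D2:**
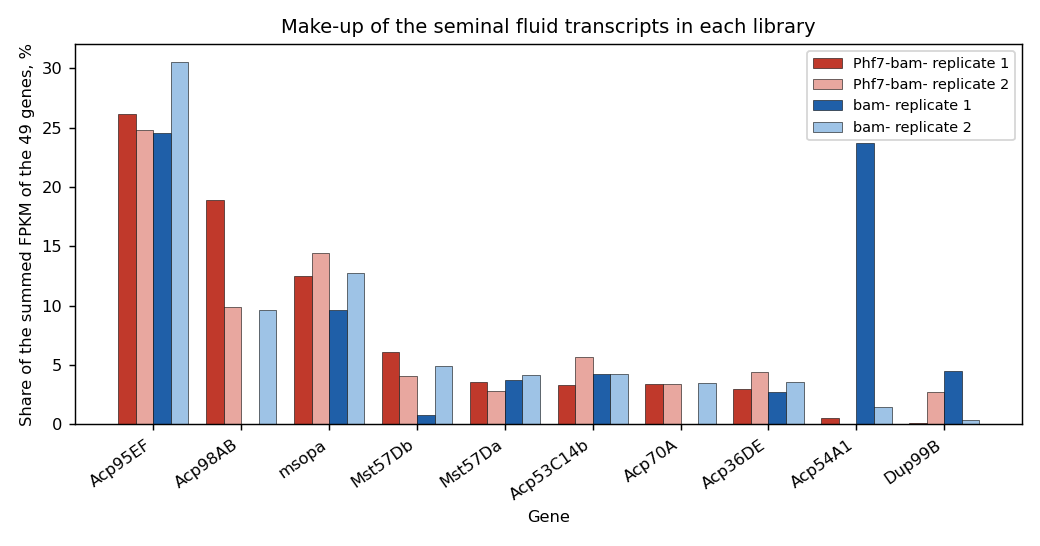
Share of 10 genes in the summed FPKM of the 49 seminal fluid genes, in percent, with 1 bar per library. Acp95EF has 24.5% to 30.5% in each library, and Acp54A1 reaches 23.7% in bam- replicate 1 only.

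The order of the genes was most alike in Phf7-bam- replicate 1 and bam- replicate 2, with Spearman's rho of 0.919 and Pearson's r of 0.920 on log2(FPKM + 1) over the 49 genes. For Phf7-bam- replicate 2 against bam- replicate 1 rho was 0.433 and r was 0.518. Within genotypes rho was 0.708 for Phf7-bam- and 0.377 for bam-. For Phf7-bam- replicate 2 against bam- replicate 2 rho was 0.767, and for Phf7-bam- replicate 1 against bam- replicate 1 it was 0.257. Over the 24 genes above 0 in all 4 libraries, rho was 0.987 for Phf7-bam- replicate 1 against bam- replicate 2 and 0.747 for Phf7-bam- replicate 2 against bam- replicate 1. Within genotypes it was 0.821 for Phf7-bam- and 0.547 for bam- over these genes. It was 0.556 between the replicates 1 and 0.806 between the replicates 2 of the genotypes. By rho, Phf7-bam- replicate 2 was thus not closest to the other low library. By Pearson's r over the 24 genes it was closest to that library, bam- replicate 1, at 0.851. This r was 0.823 with Phf7-bam- replicate 1 and 0.816 with bam- replicate 2, so the answer depended on the measure. These are descriptions across genes, which are not independent replicates, and low values hold few fragments.

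The comparison of Phf7-bam- with bam- testes asks which transcripts differ when Phf7 is mutant as well. Of the 49 genes 44 passed the filter of a mean of at least 1 FPKM, and limma called 0 of these 44, with adjusted p from 0.866 to 0.998. Of all 8965 tested genes 0.234% were called, 0.123% higher and 0.112% lower in Phf7-bam- testes. At an unadjusted p under 0.05 there were 0 of the 44 genes and 6.13% of all tested genes. The difference of Acp70A was 1.76 log2 units (limma adjusted p = 0.979, with an SE of 2.99). For Acp95EF the difference was 0.80 log2 units (limma adjusted p = 0.988, with an SE of 2.80), and for Acp26Aa it was 1.08 log2 units (limma adjusted p = 0.982, with an SE of 2.31). That of Dup99B was -0.12 log2 units (limma adjusted p = 0.989, with an SE of 0.718). The 5 largest positive differences were those of Sfp36F (3.65), Acp98AB (2.92), Sfp33A4 (2.33), Acp70A and Mst57Db (1.68). On the negative side were Acp54A1 (-2.22), Sfp93F (-0.63), Sfp24Bb (-0.31, not tested), Sfp84E (-0.13) and Dup99B. A p that misses the threshold with 2 libraries a genotype does not show that levels were equal.

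The seminal fluid genes had a wide spread between libraries of a genotype. Their median residual SD was 3.14 on the log2(FPKM + 1) scale, against 0.126 over all tested genes. Of the 89 genes in the highest 1% of residual SD (above 2.97), 27 were seminal fluid genes. The median SE of a genotype difference was 2.07 for them and 0.136 for all tested genes. With robust moderation limma called 1 of the 44, Sfp60F, at 0.86 on the log2 scale (limma adjusted p = 0.0180; 0.866 with the standard moderation), beside 3.42% of all tested genes, with 2.42% called higher in Phf7-bam-. The residual SD of Sfp60F was 0.435, the lowest of the 44.

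**Figure D3:**
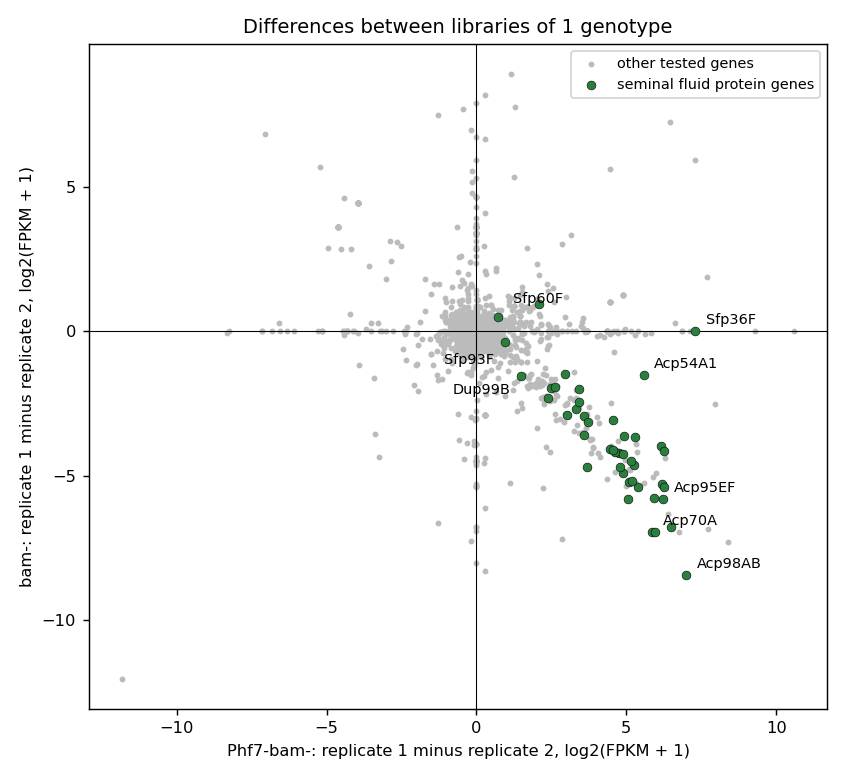
Difference between replicate 1 and replicate 2 on the log2(FPKM + 1) scale, within Phf7-bam- on the x axis and within bam- on the y axis, for the 8965 tested genes. Seminal fluid genes extend to the lower right, where replicate 1 was higher in Phf7-bam- and replicate 2 was higher in bam-, while Sfp60F and Sfp93F lie near the centre.

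The direction of the genotype difference depended on the library left out. With all 4 libraries 40 of the 44 genes had a positive difference, with a median of 0.58, against 57.4% of all tested genes and a median of 0.03. A pseudocount of 0.1 gave 35 of 44, and quantile normalization gave 39. Without Phf7-bam- replicate 1, 41 of the 44 were negative, with a median of -1.58, and without bam- replicate 1, 41 were negative, with a median of -1.40. Without Phf7-bam- replicate 2, 43 were positive, with a median of 2.84, and without bam- replicate 2, 41 were positive, with a median of 2.57. limma called 0 of the 44 in each of these 4 fits.

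Single libraries of the genotypes could be set against each other in 4 ways, with no replicate check. Phf7-bam- replicate 1 was above bam- replicate 2 in 44 of the 49 genes, below it in 3 and equal in 2, with a median ratio of 1.85 over 44 genes above 0 in both. Phf7-bam- replicate 2 was above bam- replicate 1 in 25, below it in 13 and equal in 11, with a median ratio of 1.77 over 24 genes. Phf7-bam- replicate 1 was above bam- replicate 1 in 45, and Phf7-bam- replicate 2 was below bam- replicate 2 in 43. The median over the 24 genes above 0 in all 4 libraries was 0.84, 0.41, 5.53 and -4.06 on the log2 scale in these 4 pairs, in the order given. Over all tested genes the median lay between -0.06 and 0.12 in the same pairs.

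Other genes of the seminal fluid were read from lists of genes known for these roles. Among 11 genes of the network that binds sex peptide to sperm or receives it, limma called 0 of 10 tested, and 1 had an unadjusted p under 0.05. Male members of the network had the order of libraries seen above. The lectin gene lectin-46Cb was at 26.2 and 0.687 FPKM in Phf7-bam- replicates 1 and 2, against 1.57 and 19.1 FPKM in bam- replicates 1 and 2. CG17575, which encodes a cysteine-rich secretory protein, was at 38.4 and 0.131 FPKM in Phf7-bam- replicates 1 and 2, and listed at 0 (bam- replicate 1) and at 26.9 FPKM (bam- replicate 2). The serine protease homologue gene aqrs was at 25.8 and 0.527 FPKM in Phf7-bam- replicates 1 and 2, against 0.0879 and 21.0 FPKM in bam- replicates 1 and 2. SPR, hdly and Esp are known for roles in the female. The sex peptide receptor gene SPR was at 0.162 and 0.154 FPKM in Phf7-bam- replicates 1 and 2, against 0.141 and 0.204 FPKM in bam- replicates 1 and 2. For hdly the genotypes did not overlap, and it was at 65.0 and 69.0 FPKM in Phf7-bam- replicates 1 and 2, against 36.3 and 48.9 FPKM in bam- replicates 1 and 2. Both Phf7-bam- libraries were likewise above both bam- libraries in 20.5% of all tested genes. Esp was at 1.36 and 1.98 FPKM in Phf7-bam- replicates 1 and 2, against 1.55 and 1.40 FPKM in bam- replicates 1 and 2. In all but hdly and Esp, 9 of the 11 genes, Phf7-bam- replicate 1 and bam- replicate 2 were both above the other libraries, for SPR by less than 2-fold. With robust moderation limma called hdly higher in Phf7-bam- testes (limma adjusted p = 0.00141; 0.578 with the standard moderation), beside 2.42% of all tested genes.

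Of 16 further seminal fluid genes, 11 were tested and limma called 0, with 0 at an unadjusted p under 0.05. In 13 of the 16 the same 2 libraries were the higher ones. The serpin gene Spn38F was at 76.9 and 2.13 FPKM in Phf7-bam- replicates 1 and 2, against 0.793 and 51.2 FPKM in bam- replicates 1 and 2. lectin-30A was at 31.3 and 1.17 FPKM in Phf7-bam- replicates 1 and 2, against 0.237 and 18.9 FPKM in bam- replicates 1 and 2. Among odorant-binding protein genes, Obp56f was at 18.0 and 0.315 FPKM in Phf7-bam- replicates 1 and 2, and listed at 0 (bam- replicate 1) and at 12.1 FPKM (bam- replicate 2). Transcripts of regucalcin, which is also made outside the reproductive tract, had a smaller range and were at 287 and 284 FPKM in Phf7-bam- replicates 1 and 2, against 162 and 242 FPKM in bam- replicates 1 and 2 (limma gave an adjusted p of 0.838, and robust moderation one of 0.0417). Robust moderation called 2.42% of all tested genes higher in Phf7-bam-. In mfas the order was not seen, at 183 and 189.5 FPKM in Phf7-bam- replicates 1 and 2, against 204 and 220.5 FPKM in bam- replicates 1 and 2.

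Genes of the ejaculatory duct and bulb did not share this order in any of 5 cases, and limma called 0 of 5, with 1 at an unadjusted p under 0.05. Est-6, the duct esterase, was at 20.7 and 20.5 FPKM in Phf7-bam- replicates 1 and 2, against 20.9 and 21.5 FPKM in bam- replicates 1 and 2. Gld, a glucose dehydrogenase of the duct, was at 2.38 and 3.23 FPKM in Phf7-bam- replicates 1 and 2, against 2.43 and 2.76 FPKM in bam- replicates 1 and 2. PebIII had the highest mean of the list and was at 335 and 405 FPKM in Phf7-bam- replicates 1 and 2, against 205 and 179.8 FPKM in bam- replicates 1 and 2, without overlap of the genotypes (0.94 in log2 units; limma gave an adjusted p of 0.237, and robust moderation one of 1.20e-06). Robust moderation also called PebII, and it called 2.42% of all tested genes higher in Phf7-bam-. Both Phf7-bam- libraries were above both bam- libraries in 20.5% of all tested genes. Peb was at 1.59 and 0.923 FPKM in Phf7-bam- replicates 1 and 2, against 2.002 and 0.300 FPKM in bam- replicates 1 and 2. Est-6 and Gld thus differed by less than 2-fold across the libraries, while Peb and PebII, at lower levels, had a wider range in another order than the seminal fluid genes.

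Regulators and markers of other cells were examined beside the seminal fluid genes. prd, a transcription factor needed to form the accessory gland, was at 3.24 and 0.0866 FPKM in Phf7-bam- replicates 1 and 2, against 0.0641 and 2.74 FPKM in bam- replicates 1 and 2, in the order of libraries of the seminal fluid genes. Other genes of that list differed less between the libraries of a genotype. dve was at 1.006 and 0.656 FPKM in Phf7-bam- replicates 1 and 2, against 0.153 and 0.299 FPKM in bam- replicates 1 and 2. Abd-B was at 7.96 and 7.32 FPKM in Phf7-bam- replicates 1 and 2, against 6.97 and 7.44 FPKM in bam- replicates 1 and 2. abd-A was at 17.6 and 21.5 FPKM in Phf7-bam- replicates 1 and 2, against 19.1 and 19.2 FPKM in bam- replicates 1 and 2. In 2 of these 4 genes, prd and Abd-B, the same 2 libraries were the higher ones, and none of the 4 was at 0. Summed FPKM of 5 germline markers was 592 and 686 in Phf7-bam- replicates 1 and 2, against 559.8 and 532 in bam- replicates 1 and 2. For 5 markers of cyst and hub cells it was 70.1 and 80.4 in the Phf7-bam- libraries, against 71.4 and 76.8 in the bam- libraries. Germline and cyst markers were thus present in all 4 libraries. limma called 0 of them, with 1 germline gene and 0 cyst or hub genes at an unadjusted p under 0.05. In nos, aub and piwi, but not in vas or bgcn, both Phf7-bam- libraries were above both bam- libraries, an order found in 20.5% of all tested genes. The widest gap was that of nos, which was at 171 and 205 FPKM in Phf7-bam- replicates 1 and 2, against 136 and 129 FPKM in bam- replicates 1 and 2.

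Muscle, fat body, gut and haemocyte markers did not share the order in any gene. Summed FPKM of 6 muscle markers was 459 and 531 in Phf7-bam- replicates 1 and 2, against 377 and 516 in bam- replicates 1 and 2. The 6 fat body markers summed to 53.5 and 72.2 FPKM in the Phf7-bam- libraries, against 24.2 and 38.3 FPKM in the bam- libraries. The 5 trypsin genes of the gut summed to 5.89 and 1.27 FPKM in the Phf7-bam- libraries, against 3.86 and 0.843 FPKM in the bam- libraries, and epsilonTry was listed at 0 in bam- replicate 2. The 3 haemocyte markers summed to 7.57 and 7.74 FPKM in the Phf7-bam- libraries, against 4.81 and 3.18 FPKM in the bam- libraries. limma called 0 of the tested genes of these lists, and robust moderation called Tsf1 of the fat body and Hml of haemocytes higher in Phf7-bam- testes, beside 2.42% of all tested genes. Tsf1 was also called among genes with a mean of at least 5 FPKM (limma adjusted p = 0.0247, against 0.0852 with the 1 FPKM filter). At an unadjusted p under 0.05 there were 2 fat body genes, 1 haemocyte gene and 0 muscle or gut genes. In bulk RNA more cells of a type and more RNA per cell cannot be told apart, and the part of accessory gland tissue in the seminal fluid levels was not tested.

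**Figure D4:**
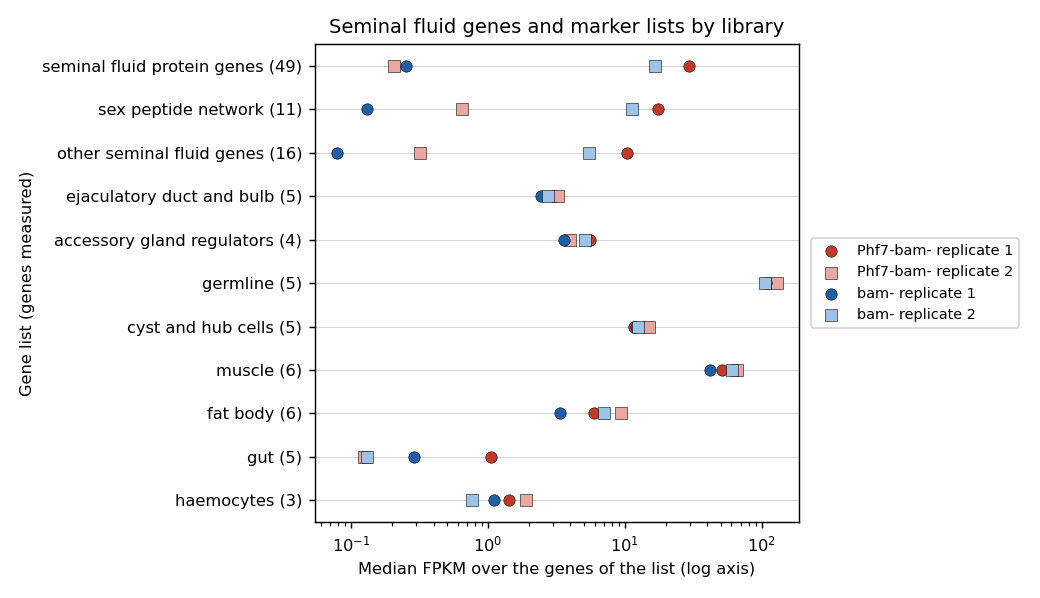
Median FPKM of each gene list on a log axis, with 1 point per library. The seminal fluid genes, the sex peptide network and the other seminal fluid genes spread over more than 10-fold, with Phf7-bam- replicate 1 and bam- replicate 2 highest, while germline, cyst and hub cell, and ejaculatory duct and bulb lists lie close together. The gut list also spread, in another order, with medians of 1.06 and 0.124 FPKM in Phf7-bam- replicates 1 and 2, against 0.288 and 0.131 FPKM in bam- replicates 1 and 2.

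The seminal fluid genes also share features of their loci. By position in dm3, 21 lie on 2L, 8 on 2R, 10 on 3L and 10 on 3R, and 0 lie on X, which holds 15.4% of all genes in the tables. The share on 2L was 42.9%, against 18.7% of all genes. Their loci were short, with a median of 451 bp and a range of 131 to 2914 bp, against a median of 1919 bp for all genes. The reference annotation, of a later build, lists 47 of them by identifier, all as protein-coding genes. Sfp33A4 and Acp98AB were not matched. The locus of 17 overlaps another gene of the tables, and 12 lie wholly within another locus, as Acp32CD does in Samuel and Acp62F in Mrtf. How strand was used in quantification was not stated in the labels, so reads of such stretches cannot be assigned with certainty.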

How the data were processed

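RNA from testes of Phf7-bam- and bam- flies was sequenced from directional libraries, per the labels' protocols, with 2 libraries per genotype. The authors deposited 1 FPKM table per library. Per the submitters' processing notes, the build was dm3 and the tools included Cuffdiff, Cufflinks and TopHat2; no version is given. Tables were joined by gene identifier, and 1 was added to locus starts. Genes with a mean of at least 1 FPKM over the 4 libraries (8965) were fitted as log2(FPKM + 1) with limma 3.58.1 in R 4.3.3, with genotype as the only term and variances moderated along an intensity trend. Genes under 0.05 after Benjamini-Hochberg adjustment over all tested genes were called (two-sided). Fold changes on this scale understate changes of low genes. The fit had 2 residual and 2.64 prior degrees of freedom. Each p-value sets the genotype difference against the moderated spread between these libraries within genotypes. The fit was tested on simulated data with the same small spread for every gene. That test does not cover genes as variable as the seminal fluid genes. Depth was compared from FPKM values up to 0.15. Tables were handled with pandas 2.3.3 and numpy 2.4.6 in Python 3.11.15, and plots drawn with matplotlib 3.10.9.

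Genes named were every member that passed the filter, the highest by mean, those above 0 in all libraries, the 5 largest differences in each direction, Acp70A, Dup99B, Phf7, bam, and of each list the called genes or the one with the highest mean; further list genes in the text were picked with their values known. The genes and lists were chosen with earlier results of these data known. Alternatives were pseudocounts of 0.1 and 0.5, no filter or a mean of at least 5 FPKM, quantile normalization, equal medians, robust moderation, a replicate block and each library left out. A library left alone in its genotype is assumed to vary like the other genotype. No genome, promoter or protein sequence was used here.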

Additional observations from a re-analysis of the deposited data

How the results depend on the processing

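limma called 0 of the tested seminal fluid genes under every planned setting other than robust moderation, which called 1, and 0 in the lists of other seminal fluid genes, the sex peptide network and the ejaculatory duct and bulb, of which robust moderation called 1, 1 and 2. Over all genes the calls numbered 21, against 0 with no filter (1051 at an unadjusted p under 0.05), 37 with a mean of at least 5 FPKM and 307 with robust moderation, and 0 to 101 when a library was left out (0 without either Phf7-bam- library, with 1432 and 979 at an unadjusted p under 0.05 without replicate 1 and 2). With a replicate block limma called 18 genes and none of the seminal fluid genes. Same-numbered libraries deviated in opposite directions (correlation -0.37 over tested genes), and the crossed pairing, picked from the same values, gave 133 calls, of which 11 were seminal fluid genes. Setting Phf7-bam- replicate 1 against bam- replicate 1 gave a median difference of 5.53 for the 24 genes above 0 in all 4 libraries, and replicate 2 against replicate 2 gave -4.06, against 0.68 with all libraries and -1.67 to 3.20 with 1 left out, a range that crosses 0. Genes above 0 in all 4 libraries numbered 24, and 10 were at 1 FPKM or more in all 4. The causes were not tested. Uncalled genes changed sign as follows. With pseudocount 0.1 the difference was negative for Acp26Ab (-0.64), Sfp33A2 (-0.44), Sfp35C (-0.91), Acp53C14c (-0.96), Sfp87B (-0.67). With pseudocount 0.5 the difference was negative for Acp26Ab (-0.15), Sfp35C (-0.11), Acp53C14c (-0.16), Sfp87B (-0.0087). With quantile normalization the difference was negative for Acp53C14c (-0.028), abd-A (-0.012). With equal medians the difference was negative for abd-A (-0.0057). Leaving out each library in turn gave these lowest to highest differences on the log2 scale where a sign changed: Sfp23F -1.004 to 2.40, Sfp24C1 -1.52 to 2.06, Sfp24F -1.29 to 1.72, Sfp26Ac -1.46 to 2.12, Acp26Ab -2.60 to 2.69, Sfp26Ad -0.99 to 3.79, Acp26Aa -1.56 to 3.71, Acp29AB -0.83 to 1.56, Acp32CD -1.89 to 3.01, Sfp33A1 -1.30 to 2.42, Sfp33A4 -0.017 to 4.68, Sfp33A2 -1.17 to 1.78, Sfp33A3 -1.70 to 2.91, Sfp35C -2.18 to 2.37, Acp36DE -1.72 to 3.67, Sfp38D -1.01 to 1.63, Sfp51E -1.91 to 2.55, Sfp53D -1.35 to 1.98, Acp53C14a -1.82 to 3.34, Acp53C14b -1.74 to 3.45, Acp53C14c -2.42 to 2.51, Acp53Ea -2.98 to 3.26, Acp54A1 -5.01 to 0.56, Acp62F -1.96 to 3.83, Acp63F -2.27 to 4.66, Sfp65A -1.99 to 2.57, Sfp70A4 -1.98 to 4.19, Acp70A -1.73 to 5.24, Acp76A -1.63 to 3.13, Sfp77F -2.13 to 2.76, Sfp78E -1.23 to 2.20, Sfp79B -2.07 to 4.18, msopa -1.81 to 4.10, Sfp84E -1.36 to 1.11, Sfp87B -0.94 to 1.15, Acp95EF -2.31 to 3.91, Mst57Dc -1.83 to 3.39, Mst57Db -1.71 to 5.07, Mst57Da -2.50 to 3.68, Acp98AB -1.30 to 7.14, Dup99B -0.90 to 0.66. Among the other genes they were abd-A -0.12 to 0.16, vas -0.065 to 0.058, Fas3 -0.12 to 0.046, Act57B -0.11 to 0.32, betaTry -0.053 to 1.02. FPKM tables without counts allow no interval for low values, and 2 libraries a genotype limit every test.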

Other observations

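Genes with the library order of the seminal fluid genes were counted over the whole tables, by a rule chosen after the values were seen. Beside the 29 seminal fluid genes with that order at 8-fold or more, 35 other genes had it. Of these, 8 were in the lists of the sex peptide network and other seminal fluid genes and 4 were small RNA genes. The remaining 23 had no list. CG42481 was the highest of them and was at 1132 and 9.53 FPKM in Phf7-bam- replicates 1 and 2, against 3.12 and 505 FPKM in bam- replicates 1 and 2. CG9029 was at 251 and 0.195 FPKM in Phf7-bam- replicates 1 and 2, against 0.553 and 179 FPKM in bam- replicates 1 and 2, and CG17097 was at 217 and 2.71 FPKM in Phf7-bam- replicates 1 and 2, against 1.02 and 65.9 FPKM in bam- replicates 1 and 2. Most of the 23 have only a CG or BG name, and LysE, a lysozyme gene, was at 19.4 and 0.448 FPKM in Phf7-bam- replicates 1 and 2, against 0.159 and 20.7 FPKM in bam- replicates 1 and 2. Also among the 23, papi was at 19.7 FPKM in Phf7-bam- replicate 1 and at 33.7 FPKM in bam- replicate 2. It was listed at 0 in Phf7-bam- replicate 2 and bam- replicate 1. ThrRS was likewise listed at 0 in bam- replicate 2, and whether the 0 values of papi mean absent transcript was not tested. The opposite order at 8-fold or more was found in 28 genes, of which 27 were small RNA genes and 0 were seminal fluid genes. Over all tested genes without the 44 seminal fluid genes, the correlation of same-numbered deviations was -0.27.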
